A study of Mus musculus with 3 samples.

Results

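Basement membrane and anchoring genes were followed across the cell types of mouse dorsal skin. The set holds 34 of the 32285 genes in the matrices, and its members were chosen by name: 6 type IV collagen genes, 10 laminin chains, 4 linkers, 2 border collagens, 5 anchoring genes, 4 matricellular or crosslinking genes and 3 genes of the Fraser complex. All 34 had at least 1 UMI, the tag by which single captured transcripts are counted, in every library. Full-thickness skin of C57BL/6J mice, labelled female, was made into single-cell suspensions and profiled by droplet-based 3′ RNA-seq in 1 library per condition. The age of 8 weeks is given for the mice as purchased, and the age at collection is not given in the sources used here. CON was skin without irradiation. UV was skin exposed on alternate days to UVA (irradiance 0.60 mW/cm2) mixed with UVB (irradiance 3.5 mW/cm2) over 12 weeks. Rux had the same irradiation with an ointment of 1.5% ruxolitinib, an inhibitor of the JAK1 and JAK2 kinases, put on the skin after each exposure. By the study's group scheme, CON and UV skin was given the vehicle alone. Skin was taken 24 h after the last exposure in all 3 groups, and the number of mice behind a library is not given in the sources used here.

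A basement membrane is a thin sheet of matrix that underlies epithelia and wraps vessels, nerves, muscle and fat. Laminin trimers and a type IV collagen network form its layers, nidogens and heparan sulfate proteoglycans link them, and in skin the hemidesmosome and the anchoring fibril fasten basal keratinocytes to the sheet and the sheet to the dermis. The Fraser complex joins the sheet to the dermis during development and in hair follicles.

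The libraries kept 10777 cells of CON, 10231 of UV and 9299 of Rux, with a median of 7549, 7669 and 9438 UMIs per cell, and the members held 361625, 360848 and 386672 UMIs. The female label was not borne out by the RNA in any library: the Y-linked gene Ddx3y was at 110 to 121 CPM (a gene's UMIs scaled to one common total of summed UMIs) and Xist at 0.0922 to 0.119 CPM. Pairs of libraries shared 23 to 35 cell barcodes, at most 0.342% of either. Cells were clustered together without the members among the genes used, and 40 of 45 clusters took a name from marker genes, so a class is called FB-like (fibroblast), VEC-like (vascular endothelial) and so on. The 5 unnamed clusters held 10.3% of CON, 7.60% of UV and 5.94% of Rux cells. With 1 library per condition no difference below has a replicate check, and every interval is an exact 95% interval that covers counting error only.

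The 6 type IV collagen genes lie head to head in pairs in the genome, and the stretches between their starts are shown because the members of a pair are described together below. The positions are those of GENCODE M21 on GRCm38, the sequences are RefSeq's for GRCm38.p6, each is written 5′ to 3′, and capitals mark GGGCGG or its reverse complement CCGCCC. Col4a1 (chromosome 8, 11198423 to 11312826, minus strand) and Col4a2 (chromosome 8, 11312805 to 11449287, plus strand) overlap by 22 bases at their starts, shown on the plus strand from chr8:11312805-11312826. Col4a4 (chromosome 1, 82448423 to 82586849, minus strand) and Col4a3 (chromosome 1, 82586921 to 82722059, plus strand) are separated by 71 bases, shown on the plus strand from chr1:82586850-82586920. Col4a6 (chromosome X, 141165403 to 141474076, minus strand) and Col4a5 (chromosome X, 141475385 to 141689234, plus strand) are 1308 bases apart, and the 120 bases before each start are shown, from chrX:141474077-141474196 on the minus strand and from chrX:141475265-141475384 on the plus strand.
Col4a1 and Col4a2: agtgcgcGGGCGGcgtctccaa
Col4a4 and Col4a3: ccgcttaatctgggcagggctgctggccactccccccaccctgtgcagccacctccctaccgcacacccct
Col4a6: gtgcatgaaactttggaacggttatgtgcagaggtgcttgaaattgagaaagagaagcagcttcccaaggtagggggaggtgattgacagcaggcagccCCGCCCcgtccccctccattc
Col4a5: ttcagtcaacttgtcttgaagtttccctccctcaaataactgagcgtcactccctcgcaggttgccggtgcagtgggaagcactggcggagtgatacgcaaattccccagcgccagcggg
The motif was present in 2 of the stretches, the bases that Col4a1 and Col4a2 share and those before Col4a6. In the promoter table, which gives 250 bases before and 50 after a start, 22 members had 28 windows. GGGCGG on either strand was in 17 of the 28 windows and in 35.7% of all 32851 windows, and CCAAT on either strand was in 14 windows and in 37.4% of all. TTCNNNGAA, the palindrome to which STAT proteins can bind, was in 1 window of the members, that of Lamb2, and in 8.3% of all. The windows of Col4a1 and Col4a2 overlap, so their matches are not separate.

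Members were spread over every compartment of the skin. By the class with the highest mean CPM of the 3 libraries, 9 members peaked in epithelial, 9 in fibroblast, 11 in vascular and 5 in other cells. The vascular compartment counted VEC-like, LEC-like (lymphatic endothelial) and PCY-like (pericyte and smooth muscle) cells. The PCY-like class was cluster 19 alone, led by the smooth muscle genes Myh11, Acta2 and Tagln. The pericyte markers Rgs5, Abcc9 and Higd1b were among the top genes of the unnamed cluster 29, which the class left out. Of the 5 others, Lamb1, Dst and Dag1 peaked in SCH-like (Schwann) cells and Lamb3 in NEU-like (neutrophil) cells. Lamb2 was placed in ERY-like (red cell) cells by 1 UMI in the single CON cell of that class, and over classes with at least 20 cells in each library it peaked in PCY-like cells at 252, 304 and 360 CPM in CON, UV and Rux. Other placements were close or moved with the settings. Col15a1 had a mean of 351 CPM in VEC-like and 341 in DP-like (dermal papilla) cells. With equal weight per cell, Col4a5, Hspg2 and Col15a1 left the vascular compartment. Pxdn, Lama1 and Lama3 also changed compartment under some settings.

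**Figure D1:**
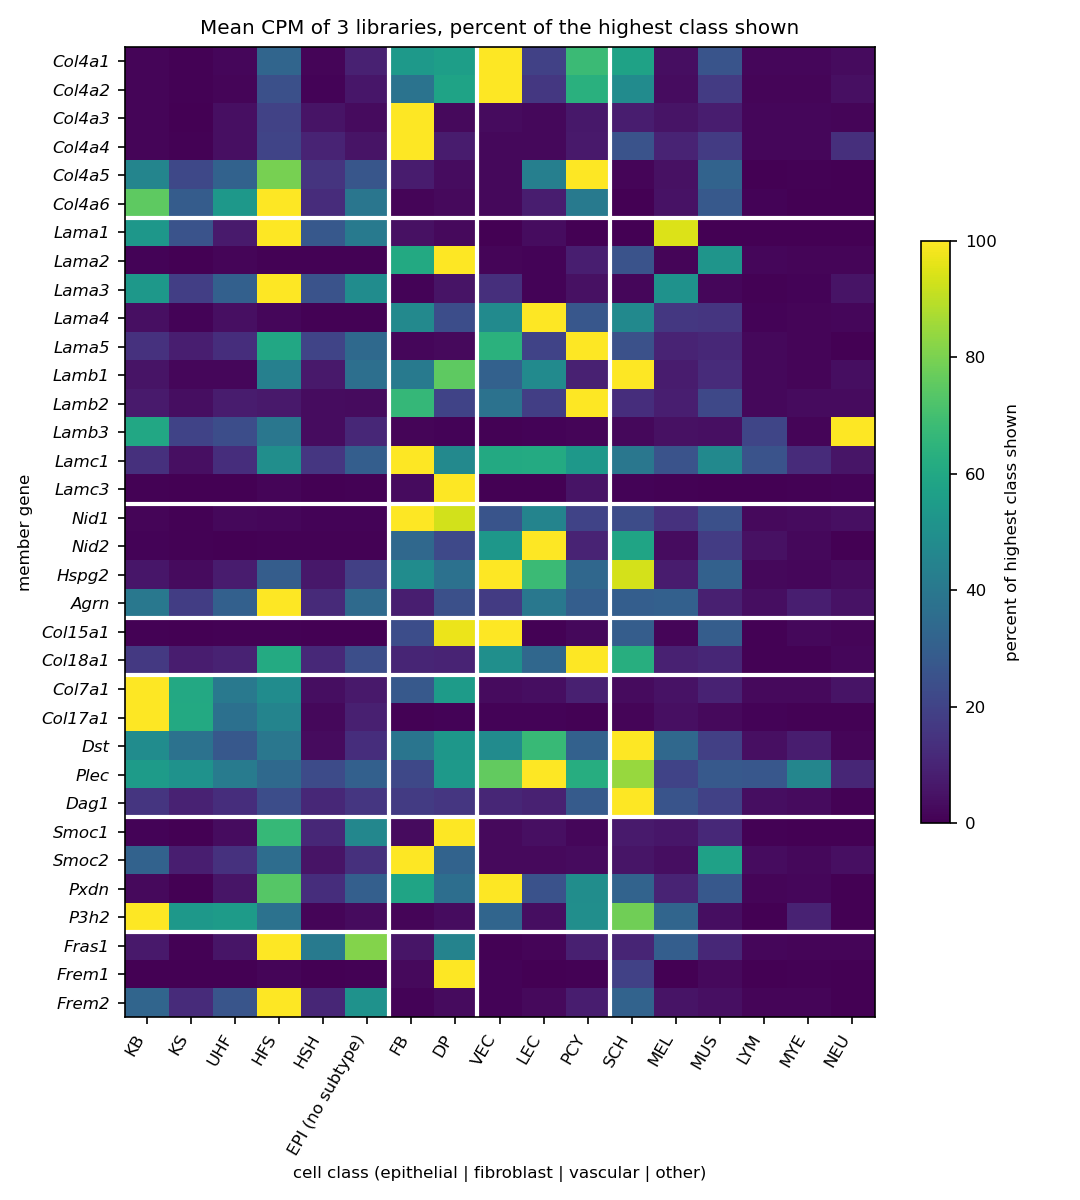
Heat map of the 34 members (rows, grouped by role) in 17 cell classes (columns), where colour is the mean CPM of the 3 libraries as a percent of the highest class shown for that gene, so colours compare classes within a row and not genes. Col4a1 and Col4a2 peak in VEC, Col4a3 and Col4a4 in FB, Col4a6 in HFS, Col7a1 and Col17a1 in KB, and Lamc3 and Frem1 in DP.

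Col4a1 and Col4a2 encode the chains of the most widespread type IV collagen trimer. In VEC-like cells Col4a1 was at 412 CPM in CON, 926 in UV and 986 in Rux. Both irradiated libraries lay above CON, with UV over CON at 1.17 (1.07 to 1.27) on the log2 scale from 1076 and 3124 UMIs, and Rux over UV was 0.09 (-0.00 to 0.18). Col4a2 was at 332, 788 and 736 CPM, again low in CON alone, and UV over CON was 1.25 (1.14 to 1.36) on the log2 scale. VEC-like cells came from cluster 17, which held 294 of 407 CON, 207 of 474 UV and 99 of 181 Rux cells, and cluster 21, which held the rest. In cluster 17 Col4a1 was at 324, 839 and 745 CPM, and in cluster 21 at 775, 1044 and 1527 CPM. UV was above CON in both clusters, by 1.37 (1.24 to 1.51) and 0.43 (0.27 to 0.59), while Rux was slightly below UV in cluster 17 and above it in cluster 21. The unnamed cluster 29, which carried markers of both VEC and PCY, had 772, 1194 and 1581 CPM. The summed level of 8 pericyte markers in VEC-like cells moved the same way, at 154 CPM in CON, 399 in UV and 406 in Rux with none of the 8 at 0, and its part in the result was not tested. After each cell was thinned to 2000 UMIs, 41.8% of CON, 66.9% of UV and 66.2% of Rux VEC-like cells had a Col4a1 UMI, against 2.05%, 3.91% and 2.02% of LYM-like (lymphocyte) cells, a class that should lack the gene. Without thinning the shares were 64.1%, 82.9% and 85.1% at median depths of 5365, 5842 and 6385 UMIs in VEC-like cells, and 4.33%, 8.71% and 7.2% at 5427, 5417 and 5607 UMIs in LYM-like cells. Thinning left out the shallower cells, 24 to 45 VEC-like and 10 to 15 LYM-like cells per library.

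In PCY-like cells the pair was highest in Rux. Col4a1 was at 342 CPM in CON, 448 in UV and 795 in Rux, with a log2 ratio of Rux over UV of 0.83 (0.68 to 0.97). Col4a2 was at 232, 361 and 583 CPM, lowest in CON and highest in Rux, with ratios of 0.64 (0.44 to 0.85) for UV over CON and 0.69 (0.52 to 0.86) for Rux over UV. The 2 ratios share the UV library, here and wherever both are given. LEC-like cells held less Col4a1, at 146, 123 and 180 CPM, with UV lowest.

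**Figure D2:**
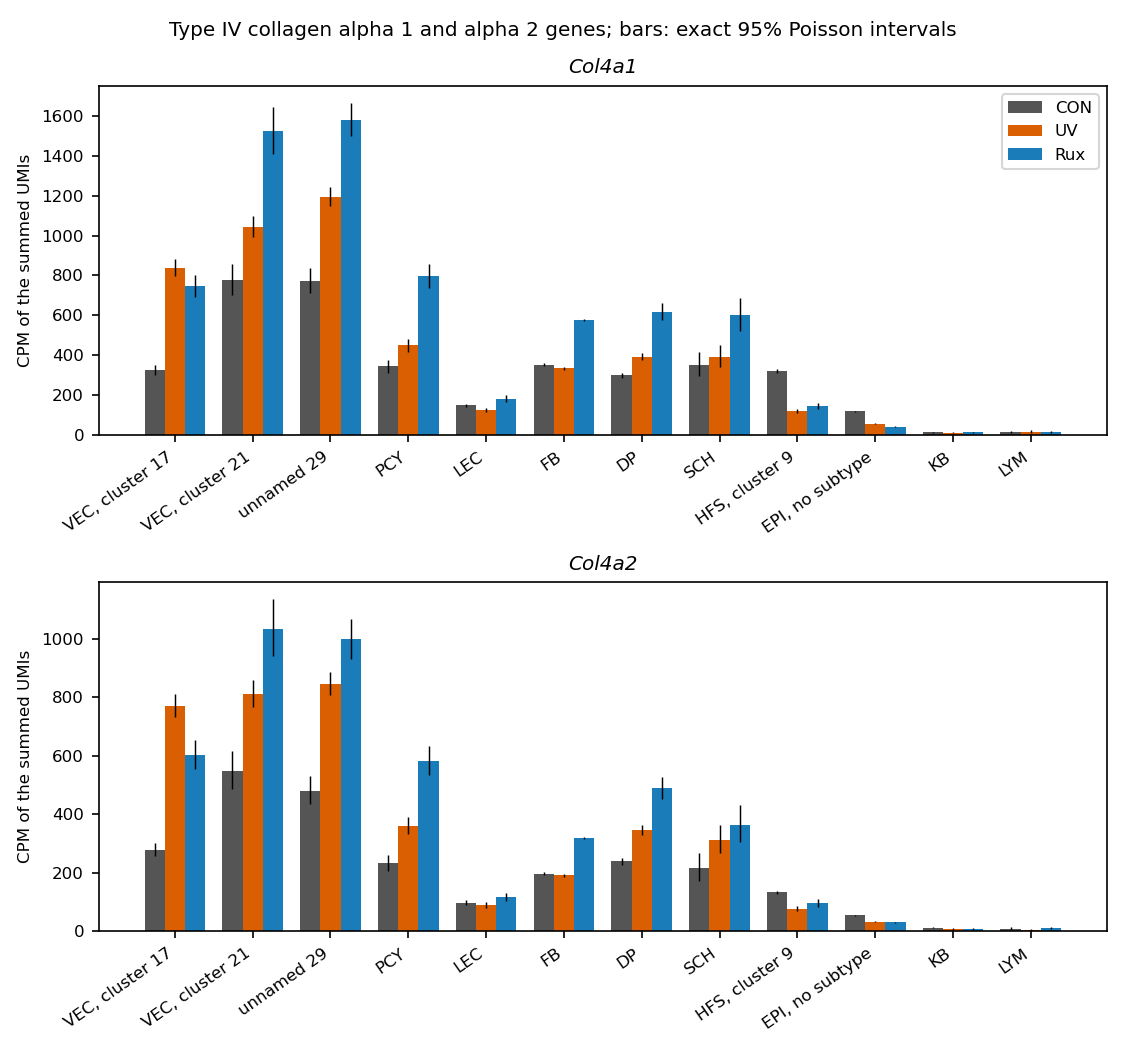
Bars give the CPM of the summed UMIs (y axis) of Col4a1 (top) and Col4a2 (bottom) in CON, UV and Rux for clusters and classes named on the x axis, and error bars are exact 95% Poisson intervals. In both VEC clusters the UV bar stands above CON, in PCY and FB the Rux bar is the highest, and in HFS cluster 9 and the epithelial cells of no subtype CON is the highest for Col4a1.

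In FB-like cells Col4a1 was at 350 CPM in CON, 332 in UV and 575 in Rux, and Col4a2 at 196, 190 and 318 CPM. Rux alone stood apart, with log2 ratios of Rux over UV of 0.79 (0.76 to 0.82) and 0.74 (0.70 to 0.78). With clusters weighted as in CON these were 0.55 and 0.42, no longer past 1.5-fold, and cluster 22, led by Saa3, held 4 CON, 103 UV and 349 Rux cells. Among the 10 fibroblast clusters, Col4a1 was higher in Rux than in UV in 10, by 0.08 to 1.03, and Col4a2 in 9. UV over CON went both ways, with Col4a1 higher in 4 clusters and lower in 4 of the 8 that could be compared. The DP-like class (dermal papilla) had Col4a1 at 297, 389 and 617 CPM, lowest in CON and highest in Rux, with a ratio of Rux over UV of 0.66 (0.55 to 0.78). SCH-like cells had 349, 392 and 598 CPM, where again Rux was highest.

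Among epithelial classes Col4a1 was highest in CON in HFS-like cells and in the cells of no subtype. HFS-like cells (hair follicle stem) had 327 CPM in CON, 158 in UV and 272 in Rux, and within cluster 9, which held most CON and UV cells of that class, 319, 116 and 142 CPM. Cluster 37, which held 140 of the 255 Rux cells of that class and 10 CON cells, had more Col4a1 in UV (435 CPM) and Rux (361 CPM) than cluster 9 had. The epithelial cells of no subtype had 116, 54.7 and 38.5 CPM, where UV over CON was -1.09 (-1.18 to -1.0) on the log2 scale. KB-like cells (basal keratinocyte) had 11.2, 8.76 and 10.9 CPM, no more than LYM-like cells at 12.0, 14.9 and 11.8 CPM, and UHF-like cells (upper hair follicle) had 11.3, 12.9 and 16.9 CPM.

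Col4a3 and Col4a4, whose products join alpha 5 in a trimer known best from the kidney glomerulus, were highest in FB-like cells. Col4a3 was at 21.2 CPM in CON, 37.8 in UV and 32.8 in Rux, and Col4a4 at 46.2, 77.3 and 62.6 CPM. CON was the lowest library for both, with log2 ratios of UV over CON of 0.83 (0.69 to 0.98) and 0.74 (0.64 to 0.84). Col4a4 was higher in UV than in CON in 7 of 7 comparable clusters, by 0.52 to 1.32, and Col4a3 in 5 of 6. Most UMIs of both lay in clusters 0 to 3, and in cluster 3 Col4a3 was at 42.7, 94.6 and 67.6 CPM. After thinning, 4.32%, 6.38% and 5.66% of FB-like cells had a Col4a3 UMI, against 0 of 244, 0 of 230 and 1 of 346 LYM-like cells, whose exact binomial intervals reach up to 1.5%, 1.59% and 1.6%. Without thinning the shares were 10.3%, 15.8% and 17.4% against 0.394%, 0.415% and 0.277% of LYM-like cells, at median depths of 6097, 7286 and 9922 UMIs in FB-like cells.

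**Figure D3:**
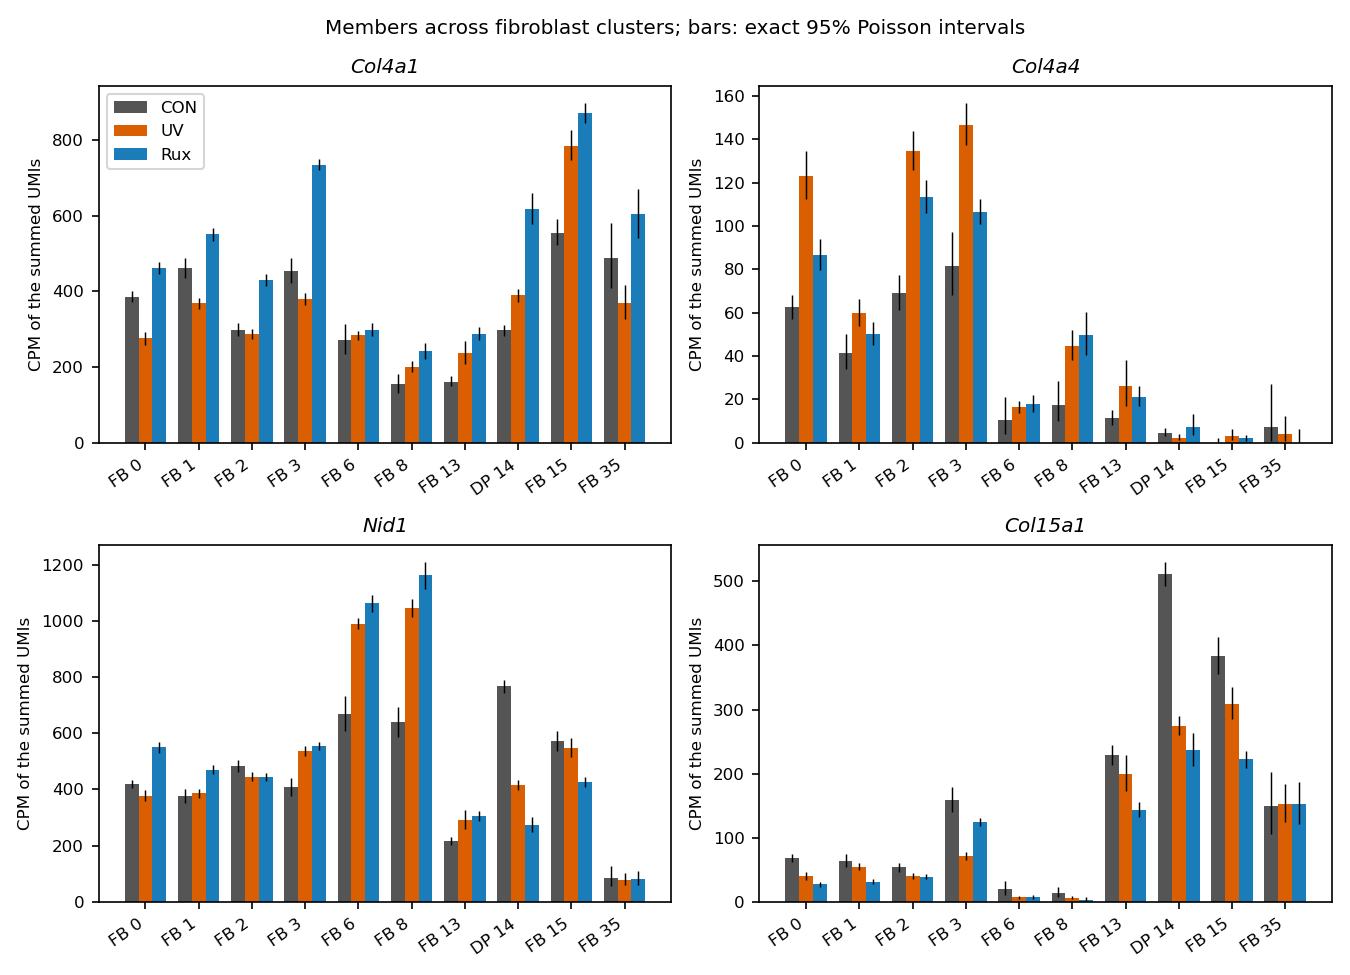
Bars give the CPM of the summed UMIs (y axes) of Col4a1, Col4a4, Nid1 and Col15a1 in CON, UV and Rux for each FB cluster and the DP cluster (x axes), with exact 95% Poisson intervals, and cluster 22 is left out because it held 4 CON cells. Rux exceeds UV for Col4a1 in every FB cluster shown, Col4a4 is concentrated in clusters 0 to 3, and Nid1 and Col15a1 in the DP cluster are highest in CON.

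Col4a5 and Col4a6 are the chains of epithelial and smooth muscle basement membranes. In KB-like cells Col4a5 was at 54.2 CPM in CON, 26 in UV and 15.5 in Rux, and Col4a6 at 64.9, 15.9 and 20.6 CPM. CON was the highest library for both, with log2 ratios of UV over CON of -1.05 (-1.40 to -0.74) and -2.02 (-2.45 to -1.64). KB-like cells came mainly from cluster 18 in CON (480 of 560) and Rux (76 of 131) and from the dividing cluster 36 in UV (80 of 104). In HFS-like cells the same genes were nearly level, Col4a5 at 50.5, 52.2 and 65.2 CPM and Col4a6 at 39.9, 43.5 and 51.8 CPM. PCY-like cells had Col4a5 at 61.2, 41.8 and 108 CPM, highest in Rux.

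Laminin alpha chains set the type of the trimer. Lama2, the chain of muscle and nerve laminins, was at 870 CPM in CON, 1001 in UV and 1192 in Rux in DP-like cells, and at 551, 623 and 688 CPM in FB-like cells. Lama4, the chain of vascular laminins, was at 296, 451 and 399 CPM in LEC-like cells and 152, 246 and 150 CPM in VEC-like cells. In VEC-like cells UV alone was high, with ratios of 0.70 (0.53 to 0.88) for UV over CON and -0.71 (-0.94 to -0.49) for Rux over UV. Rux over UV was -0.46 without doublet removal and UV over CON was 0.41 with equal weight per cell, neither past 1.5-fold. The pattern lay in cluster 17, at 145, 303 and 138 CPM, whereas cluster 21 had 178, 168 and 177 CPM. In MUS-like (muscle) cells Lama2 was at 264, 614 and 723 CPM, lowest in CON. That class held 313 CON, 68 UV and 81 Rux cells, too few in UV and Rux for a ratio to be taken. It pooled clusters 33 and 34, whose levels are not given apart. Lama5, the chain of mature epithelial and vessel laminins, was at 121, 137 and 182 CPM in PCY-like cells and 75.4, 95.1 and 111 CPM in VEC-like cells. In the epithelial cells of no subtype Lama5 was at 70.4 CPM in CON and 44.9 in UV, with a ratio of -0.65 (-0.75 to -0.55). Its UV over CON was -0.54 in HSH-like (inner root sheath and hair shaft), -0.28 in KB-like, -0.25 in HFS-like and 0.45 in UHF-like cells. Lama1 stayed at 2.00, 1.95 and 2.59 CPM in HFS-like cells, its highest class.

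Lama3 and Lamb3 encode chains of laminin-332, the laminin to which hemidesmosomes attach. In HFS-like cells Lama3 was at 162 CPM in CON, 335 in UV and 394 in Rux, low in CON alone, where UV over CON was 1.05 (0.96 to 1.13) on the log2 scale. In KB-like cells it was at 125, 140 and 210 CPM, and in the dividing cluster 36 at 62.4, 143 and 184 CPM. UHF-like cells had 52.8, 125 and 97.0 CPM, again lowest in CON. Lamb3 was at 146, 119 and 173 CPM in KB-like cells. Its level of 281, 167 and 284 CPM in NEU-like cells is uncertain, because G0s2, at 4928 CPM there in CON, lies inside Lamb3 on the other strand and strand use in the counting is not given in the sources used here. That class also held just 50 CON and 21 UV cells beside 221 Rux cells, with 41903 UMIs of all genes in UV.

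The beta and gamma chains were more widely shared. Lamb1 in VEC-like cells was at 39.0 CPM in CON, 114 in UV and 100 in Rux, both irradiated libraries above CON, with a ratio of UV over CON of 1.54 (1.22 to 1.87). DP-like cells ran the other way, at 274, 176 and 159 CPM, with a ratio of -0.64 (-0.76 to -0.52) that was -0.45 with equal weight per cell. In FB-like cells Lamb1 was at 78.5, 99.3 and 154 CPM, and it was higher in Rux than in UV in 10 of 10 clusters. Lamb2 in FB-like cells was at 198, 247 and 164 CPM, highest in UV, with a ratio of Rux over UV of -0.59 that was -0.42 with clusters weighted as in CON. Lamc1, the common gamma chain, was at 280, 360 and 434 CPM in FB-like cells and 150, 229 and 274 CPM in VEC-like cells, the same order in both. PCY-like cells, at 132, 202 and 239 CPM, and LEC-like cells, at 173, 228 and 256 CPM, shared that order too. UV also lay above CON for Lamc1 in LYM-like cells, by 0.72 (0.37 to 1.09), and MYE-like (myeloid) cells, by 0.89 (0.43 to 1.36). The same comparison gave 0.61 in VEC-like and PCY-like, 0.40 in LEC-like and 0.36 in FB-like cells. It gave 1.04 (0.78 to 1.31) in UHF-like, 0.43 in KB-like and 0.42 in DP-like cells. It gave -0.41 in the epithelial cells of no subtype, -0.22 in SCH-like, -0.11 in HFS-like and -0.01 in HSH-like cells. The source of Lamc1 in LYM-like and MYE-like cells was not tested. Lamc3, a gamma chain of few tissues, was at 307, 255 and 323 CPM in DP-like cells.

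Among the linkers, Nid1 and Nid2 encode nidogens, which bridge laminin and type IV collagen. Nid1 in FB-like cells was at 416 CPM in CON, 609 in UV and 538 in Rux, with CON lowest. Among 8 comparable clusters it was higher in UV than in CON in 5 and lower in 3, by log2 ratios of -0.15 to 0.71. It was higher in Rux than in UV in 7 of 10 clusters and lower in 3, by -0.36 to 0.54. In DP-like cells it was at 767, 416 and 273 CPM, with CON highest and ratios of -0.88 (-0.96 to -0.81) for UV over CON and -0.61 (-0.77 to -0.45) for Rux over UV. Nid1 in VEC-like cells was at 99.5, 161 and 148 CPM and Nid2 at 46.3, 87.7 and 77.1 CPM, both lowest in CON. For Nid1 this order lay in cluster 17, at 87.6, 152.5 and 153.3 CPM. In cluster 21 Nid1 was at 148.7, 171.7 and 137.7 CPM, lowest in Rux. Nid2 was lowest in CON in both clusters, at 46.2, 97.2 and 70.9 CPM in cluster 17 and 47.0, 74.6 and 91.0 CPM in cluster 21. Hspg2, which encodes perlecan, was at 290, 433 and 400 CPM in VEC-like cells. In SCH-like cells it was at 341, 306 and 404 CPM, and in LEC-like cells at 248, 276 and 242 CPM, with no library far from the rest. Agrn, which encodes agrin, was at 128, 117 and 169 CPM in HFS-like cells. Its UV over CON passed 1.5-fold, lower each time, in other classes. The ratios were -1.19 (-1.52 to -0.88) in DP-like cells, -0.73 (-0.83 to -0.62) in the epithelial cells of no subtype and -0.61 (-0.87 to -0.37) in KB-like cells.

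The border collagens, which carry heparan or chondroitin sulfate and release antiangiogenic fragments, differed from each other. Col18a1 was lowest in CON in PCY-like cells, at 229, 416 and 576 CPM, and in VEC-like cells, at 102, 223 and 285 CPM. In HFS-like cells it was at 175, 212 and 360 CPM, highest in Rux. For PCY-like and VEC-like cells the ratios of UV over CON were 0.86 (0.66 to 1.06) and 1.13 (0.92 to 1.33). Col15a1 was at 317, 377 and 360 CPM in VEC-like cells, but CON was lowest in both clusters, at 366, 492 and 409 CPM in cluster 17 and 114, 220 and 250 CPM in cluster 21, where UV over CON was 0.43 (0.29 to 0.56) and 0.94 (0.54 to 1.38). Cluster 21 held 113 of 407 CON and 267 of 474 UV cells. In DP-like cells Col15a1 was highest in CON, at 511, 274 and 237 CPM. In FB-like cells it was at 117, 56.5 and 76.0 CPM, and UV was below CON in 8 of 8 comparable clusters, by log2 ratios of -1.57 to -0.19.

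Anchoring genes were highest in KB-like cells or shared widely. Col17a1, a transmembrane collagen of the hemidesmosome, was at 1442 CPM in CON, 742 in UV and 955 in Rux in KB-like cells, with a ratio of UV over CON of -0.96 (-1.02 to -0.90). CON was highest in cluster 18, at 1626, 1118 and 1217 CPM, but the libraries were close in the dividing cluster 36, at 681, 660 and 759 CPM, where the ratio was -0.05 (-0.15 to 0.06). In HFS-like cells it was lowest in CON, at 291, 479 and 645 CPM, although UV over CON of 0.72 was 0.23 with equal weight per cell, and within cluster 9 it was 294, 519 and 1108 CPM. After thinning, 88.8%, 65.4% and 79.2% of KB-like cells had a Col17a1 UMI, against 3.69%, 1.30% and 0.867% of LYM-like cells. Without thinning the shares were 98.6%, 99.0% and 98.5% of KB-like and 7.87%, 2.90% and 4.99% of LYM-like cells. The KB-like cells of UV and Rux were deeper, with median UMIs of 11642 in CON, 29020.5 in UV and 22556 in Rux. With the 2 clusters weighted as in CON, the ratio of UV over CON was -0.49, no longer past 1.5-fold.

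Dst and Plec encode plakins that tie the hemidesmosome to keratin, and both also have forms in nerve and muscle. Dst in KB-like cells was at 1091, 557 and 740 CPM, highest in CON, but in cluster 36 the ratio of UV over CON was 0.03 (-0.10 to 0.15). In FB-like cells Dst was at 491, 817 and 586 CPM, higher in UV than in CON in 8 of 8 clusters and lower in Rux than in UV in 10 of 10. In SCH-like cells, where Dst was highest, it was nearly level at 1575, 1573 and 1745 CPM, and in LEC-like cells it was at 926, 1282 and 1086 CPM. Plec in KB-like cells was at 323, 188 and 212 CPM, again highest in CON, and in LEC-like cells at 488, 432 and 394 CPM. Dag1, which encodes dystroglycan, was at 605, 549 and 607 CPM in SCH-like cells, and in HFS-like cells at 112, 117 and 190 CPM, where Rux over UV of 0.71 was 0.48 with clusters weighted as in CON.

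Col7a1 encodes the collagen of anchoring fibrils. It was at 67.7, 58.3 and 45.0 CPM in KB-like cells, with Rux lowest. In DP-like cells it was at 10.2, 34.7 and 49.1 CPM, low in CON. In FB-like cells it was at 22.6, 10.4 and 14.8 CPM, but its UMIs there lay mostly in clusters 13, 15 and 35, and of the 2 clusters that could be compared between UV and CON 1 was higher and 1 lower.

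**Figure D4:**
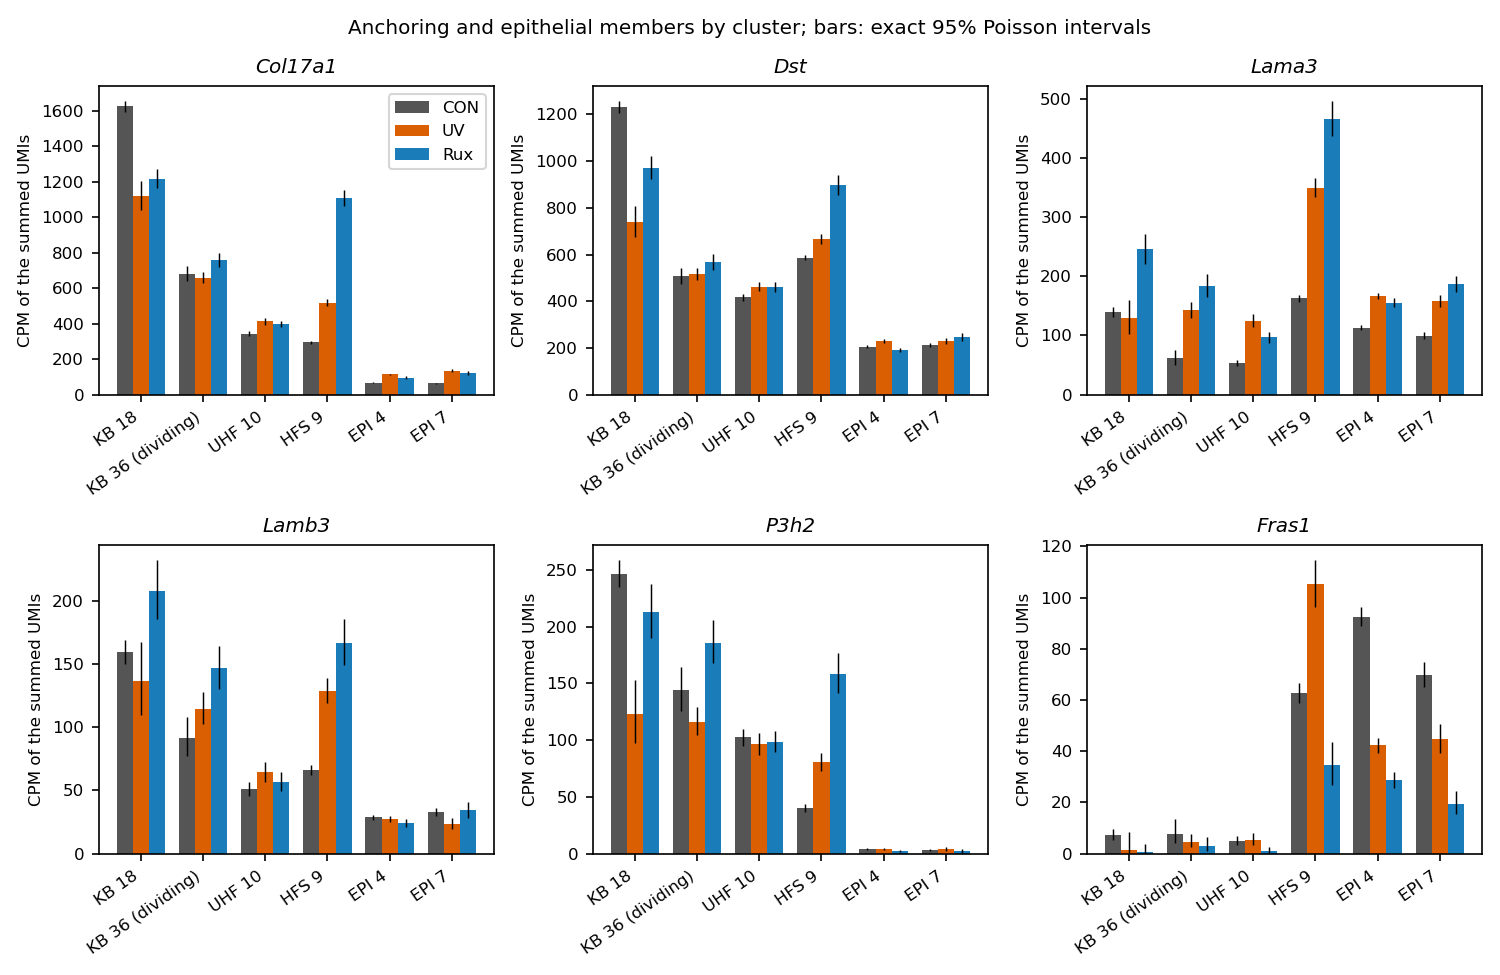
Bars give the CPM of the summed UMIs (y axes) of Col17a1, Dst, Lama3, Lamb3, P3h2 and Fras1 in CON, UV and Rux for 6 epithelial clusters (x axes), with exact 95% Poisson intervals. Col17a1 is highest in CON in KB cluster 18, close to level in the dividing KB cluster 36 and highest in Rux in HFS cluster 9.

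Of the matricellular and crosslinking members, Smoc2, which encodes a secreted calcium-binding matrix protein, was at 261 CPM in CON, 66.0 in UV and 62.4 in Rux in KB-like cells. It was also highest in CON in FB-like cells, at 487, 425 and 328 CPM, although UV was above CON in 6 of the 8 comparable clusters and below in 2, by -0.27 to 0.74, and lowest in CON in DP-like cells, at 40.2, 138 and 214 CPM, although with equal weight per cell its Rux over UV there was -0.11. Its paralog Smoc1 was at 16.9, 43.2 and 75.4 CPM in DP-like cells, the same order, and its Rux over UV of 0.81 was 0.32 with equal weight per cell. Pxdn encodes peroxidasin, which crosslinks type IV collagen, and was at 81.2, 120 and 148 CPM in VEC-like cells and 47.9, 65.7 and 144 CPM in HFS-like cells. In HFS-like cells Rux over UV was 1.13, but 0.12 without doublet removal and 0.22 with clusters weighted as in CON. P3h2, a prolyl 3-hydroxylase that acts on type IV collagen, was at 227, 117 and 197 CPM in KB-like cells, low in UV alone. Its ratios there were -0.95 (-1.11 to -0.80) for UV over CON and 0.75 (0.58 to 0.93) for Rux over UV. In cluster 36 these were -0.31 (-0.56 to -0.06) and 0.68 (0.47 to 0.90). In HFS-like cells P3h2 was at 39.6, 74.6 and 89.1 CPM, low in CON alone, although UV over CON of 0.91 was 0.29 with equal weight per cell, and in UHF-like cells it was level at 102, 96.4 and 98.6 CPM. The vascular classes had 66.7, 88.5 and 112 CPM in PCY-like and 58.2, 54.8 and 62.7 CPM in VEC-like cells.

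The Fraser complex was found in follicle and papilla cells. Fras1 in HFS-like cells was at 63.3 CPM in CON, 95.6 in UV and 36.9 in Rux, and Frem2 at 47.9, 77.5 and 18.5 CPM. Both were highest in UV and lowest in Rux, although with equal weight per cell UV over CON of Frem2 was -0.01. The order held within cluster 9 by summed UMIs for Fras1, at 62.8, 105 and 34.6 CPM, and Frem2, at 48.4, 88.1 and 36.1 CPM, where Rux over UV was -1.60 (-1.99 to -1.24) for Fras1 and -1.28 (-1.67 to -0.93) for Frem2. In DP-like cells Fras1 was at 71.1, 7.91 and 8.53 CPM, high in CON alone, with a ratio of UV over CON of -3.15 (-3.68 to -2.69). Frem1 in DP-like cells was at 265, 239 and 168 CPM. In the epithelial cells of no subtype Fras1 was at 85.3, 43.8 and 30.5 CPM and Frem2 at 48.9, 15.3 and 9.26 CPM, both highest in CON.

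Members were then counted as higher or lower where CPM differed by over 1.5-fold, for genes whose mean in the libraries compared was 10 CPM or more, and the share of all such genes past the same fold is given beside each count. In VEC-like cells 22 members were measured in UV over CON, of which 9 were higher against 6.65% of all genes and 1 lower against 6.71%. The 9 were Col4a1, Col4a2, Lama2, Lama4, Lamb1, Lamc1, Nid1, Nid2 and Col18a1, and the median log2 ratio was 0.45 for members and 0.00 for all genes. The higher count was 6 with equal weight per cell (6.46% of all genes) and 7 with members kept among the variable genes (6.55%). It was 10 with a stricter filter on cells (6.72%), without doublet removal (7.57%) and with clusters weighted as in CON (7.17%). Of the 9 members, 4 passed a fold of 2 (1.79% of all genes), and Lama2 turned to -0.27 with equal weight per cell. Lama2 was at 13.4 CPM in CON and 26.7 in UV, no more than in LYM-like cells in UV, at 13.3 and 30.45 CPM. Its source in VEC-like cells was not tested. Lamc1 was also higher in UV in LYM-like cells, by 0.72, and in MYE-like cells, by 0.89, against 0.61 in VEC-like and PCY-like cells. The 1 lower was Col17a1, at 22.2, 6.52 and 5.77 CPM, and 9 epithelial markers moved with it, at 550, 207 and 242 CPM summed with none at 0, whose part in the result was not tested. In PCY-like cells 6 of 23 were higher against 12.2%, Col4a2, Lama2, Lama4, Lamb1, Lamc1 and Col18a1, and 1 was lower against 9.14%, Col4a6. With equal weight per cell Col4a2 was at 0.43 and Lamc1 at 0.50, neither past 1.5-fold. The 7 endothelial markers in PCY-like cells summed to 116 CPM in CON and 246 in UV with none at 0, and their part in the result was not tested. The 7 fibroblast markers there summed to more, at 2614 CPM in CON, 2689 in UV and 2298 in Rux with none at 0. Lama2 was at 51.8 CPM in CON and 103 in UV in PCY-like cells, against 551 and 623 CPM in FB-like cells. The part of fibroblast RNA in the PCY-like ratios was not tested. In FB-like cells 4 of 21 were higher against 6.16%, Col4a3, Col4a4, Lama4 and Dst, and 2 were lower against 8.2%, Col15a1 and Col7a1. The lower count was 0 when clusters were weighted as in CON (5.15% of all genes). The higher count there was 3 with equal weight per cell (5.3% of all genes) and 3 with clusters weighted as in CON (3.96%). Lama4, at 0.70, ranged from 0.39 to 0.80 over the settings. In KB-like cells 8 of 20 were lower against 7.77%, Col4a5, Col4a6, Agrn, Col17a1, Dst, Plec, Smoc2 and P3h2, and 4 were higher against 14.6%, Lama4, Hspg2, Col18a1 and Dag1. With clusters weighted as in CON, 9 of 18 were lower against 15.2% and 0 were higher against 10.0%. The dividing cluster 36 held 80 of 560 CON and 80 of 104 UV cells of this class. Col17a1 and Dst were near level between CON and UV within it, and the part of this cluster make-up in the counts was not tested.

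Between Rux and UV fewer members passed, but the share of all genes that were higher was smaller too in each of these classes. The share of all genes that were lower was smaller in FB-like and KB-like cells and larger in VEC-like and PCY-like cells. In FB-like cells 3 of 21 were higher against 3.45%, Col4a1, Col4a2 and Lamb1, and 1 was lower against 5.17%, Lamb2. In PCY-like cells 3 of 23 were higher against 8.31%, Col4a1, Col4a2 and Col4a5, and 2 lower against 11.7%, Lama3 and Smoc2. Lama3 rested there on 26 UMIs in UV and 7 in Rux, and Smoc2 on 29 and 6. Smoc2 in PCY-like cells, at 14.1 CPM in CON and 17.6 in UV, was near its LYM-like level of 16.4 and 12.3 CPM. In VEC-like cells 0 of 20 were higher against 4.33%, and 2 were lower against 8.99%, Lama2 and Lama4. Lama2 rested on 90 and 8 UMIs, and its ratio of -2.13 moved to -0.02 when doublets were kept and to -0.53 when cells were weighted equally, neither past 1.5-fold. The 7 fibroblast markers in VEC-like cells summed to 674 CPM in UV and 404 in Rux with none at 0, and their part in the result was not tested. In KB-like cells 3 of 22 were higher against 4.71%, Lama2, Nid1 and P3h2, and 1 was lower against 5.75%, Col4a5. The 7 fibroblast markers in KB-like cells summed to 194 CPM in UV and 421 in Rux with none at 0, beside Lama2 at 6.29 and 13.8 CPM and Nid1 at 6.29 and 14.0 CPM, and their part in these ratios was not tested.

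**Figure D5:**
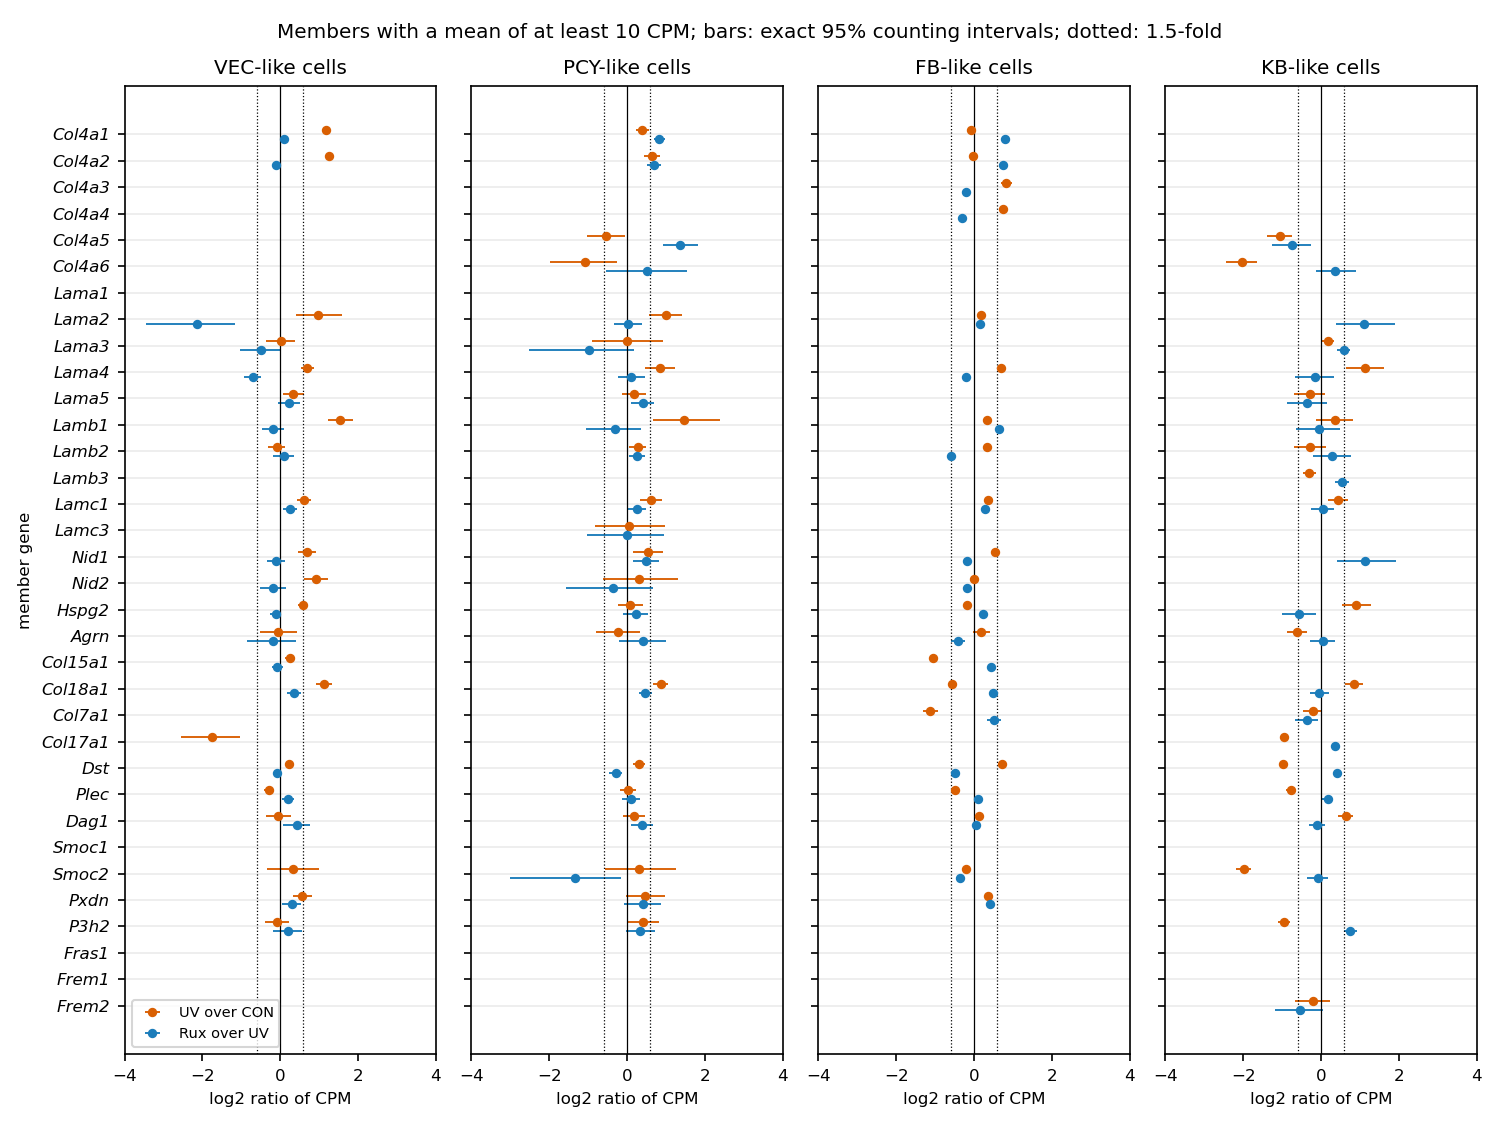
Points give the log2 ratio of CPM (x axes) of UV over CON and of Rux over UV for each member (y axis) whose mean was 10 CPM or more in VEC-, PCY-, FB- and KB-like cells, bars are exact 95% counting intervals, and dotted lines mark 1.5-fold. UV over CON lies past the right dotted line for 9 members in VEC and past the left dotted line for 8 members in KB. Rux over UV of Col4a1 and Col4a2 lies past the right dotted line in FB and PCY.

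A list of 31 other genes covered 11 receptors of the basement membrane, 10 genes of collagen folding and crosslinking, and 10 further matrix genes. The shares of all genes past 1.5-fold are repeated in brackets, higher then lower. In UV over CON, 4 of the 23 measured in VEC-like cells were higher and 2 lower (6.65% and 6.71%). The higher were Sparc, which encodes a collagen-binding matrix protein, at a log2 ratio of 1.30, Plod2, a lysyl hydroxylase gene, at 0.62, Vwa1 at 0.72 and Fbln2 at 0.76, and the lower were Itgb4 at -0.59 and Sdc4 at -1.16. In PCY-like cells 5 of 26 were higher and 2 lower (12.2% and 9.14%), the higher being the prolyl hydroxylase genes P4ha1 (0.71), P4ha2 (1.04), P4hb (0.59) and P3h1 (1.05) and the collagen receptor gene Ddr1 (0.71), and the lower Sdc4 (-0.66) and Fbln1 (-1.35). In KB-like cells 4 of 20 were higher and 3 lower (14.6% and 7.77%), the lower being the integrin genes Itga3 (-1.15) and Itga6 (-0.84), whose products anchor keratinocytes to laminin, and Sparc (-0.88). The higher were Itga2 (0.59), Serpinh1 (0.61), Fbln1 (1.51) and Fbln2 (1.67). In FB-like cells 0 of 23 were higher and 1 lower (6.16% and 8.2%), Sdc1 (-0.67). In Rux over UV, 3 of 23 were higher in FB-like cells and 0 lower (3.45% and 5.17%). In VEC-like cells 0 of 24 were higher and 4 lower (4.33% and 8.99%), in PCY-like cells 2 of 25 higher and 2 lower (8.31% and 11.7%), and in KB-like cells 1 of 21 higher and 2 lower (4.71% and 5.75%). The 4 lower in VEC-like cells were P4ha1 (-0.65), Plod2 (-0.72), Hmcn1 (-1.50) and Hmcn2 (-0.86). In FB-like cells the higher were Sdc1 (0.67), Sdc4 (0.71) and Hmcn1 (1.18). In PCY-like cells Ddr1 (0.66) and Npnt (0.83) were higher and Itga6 (-1.02) and Hmcn2 (-1.84) lower, and in KB-like cells Tinagl1 (0.80) was higher and Sdc4 (-0.69) and Fbln1 (-0.81) lower.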

How the data were processed

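Dorsal skin of 3 conditions was dissociated and single cells were sequenced from the 3′ end in droplets, 1 library each. The authors deposited UMI counts per gene and cell, not normalized. The matrix headers name Cell Ranger 7.0.0, and the submitters' processing notes name Cell Ranger 6.1.2, Seurat 5.3.0 and mm10. Whether introns or strand were counted is not given in the sources used here. The deposited matrices held 13170 (CON), 12411 (UV) and 11287 (Rux) cells and 165337289, 133972374 and 131570327 UMIs. Members and lists were chosen with earlier results of these data known.

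Cells were kept where 200 genes or more were detected and mitochondrial UMIs made up at most 10%, the cells with the highest Scrublet scores (scanpy 1.11.5) were removed as doublets at 0.8% per 1000 cells, and cells were clustered in Seurat 5.3.0 (R 4.3.3) on 2000 variable genes without the members, with 30 components, resolution 1.5 and no batch correction. A cluster was named where at least 3 markers of a class were each detected in at least 10% of its cells, and stayed unnamed where a second lineage scored within 1 on the log2 scale unless its top 10 genes settled it. UMIs were summed per library and class and given as CPM with exact Poisson intervals, log2 ratios were taken with 0.5 UMI added to each count and had exact conditional binomial intervals from the counts themselves, and shares were thinned to 2000 UMIs per cell, with exact binomial intervals (Python 3.11.15, scipy 1.17.1). The interval code was tested on simulated data. A class entered the ranking of levels with 50 cells over the 3 libraries together and some in each. Ratios needed 100 cells of a class, or 50 of a cluster, in each library compared. Values qualified for naming where a class level reached 50 CPM with 100 UMIs or where a ratio past 1.5-fold rested on 30 UMIs. Not every qualifying value is given, and widely expressed members are given in fewer classes. Ratios of UV over CON left out above include Lama3 in DP-like (2.14), Smoc1 in HFS-like (1.77) and Fras1 in HSH-like cells (-1.38, inner root sheath and hair shaft). No test was made, since each condition had 1 library. Gene positions came from GENCODE M21, in which 32158 identifiers were found, and promoter windows from RefSeq. The 3′ UMIs are not compared between genes. Alternatives in cell filters, doublet removal, resolution, cluster weights, fold and count minimum were run.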

Additional observations from a re-analysis of the deposited data

Results flagged for a closer look

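Of the ratios with at least 100 UMIs and a mean of at least 50 CPM, 8 members in UV over CON and 1 in Rux over UV lay past 1.5-fold in opposite directions in different classes. Each ratio compares 1 library with 1 library, and the difference between classes was not tested.

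In UV over CON, the log2 ratio of Lamb1 was 1.54 in VEC-like and -0.64 in DP-like cells, and that of Nid1 was 0.69 and -0.88 in the same classes. Smoc2 was at 1.78 in DP-like and -1.98 in KB-like cells. Col4a1 was at 1.17 in VEC-like cells and -1.09 in the epithelial cells of no subtype. Col17a1 was at 0.79 in the epithelial cells of no subtype and -0.96 in KB-like cells, and Fras1 was at 0.59 in HFS-like cells and -0.96 in the epithelial cells of no subtype. Dst was at 0.73 in FB-like and -0.97 in KB-like cells, and P3h2 at 0.91 in HFS-like and -0.95 in KB-like cells. In Rux over UV, Nid1 was at 0.61 in SCH-like and -0.61 in DP-like cells. Without doublet removal the value in SCH-like cells was -0.66, and 4 of 8 settings kept it past 1.5-fold in the same direction. With equal weight per cell, UV over CON no longer passed 1.5-fold for Lamb1 in DP-like cells (-0.45), Nid1 in VEC-like cells (0.48), Fras1 in HFS-like cells (0.43) and P3h2 in HFS-like cells (0.29), and with clusters weighted as in CON it did not for Col17a1 in KB-like cells (-0.49). Without doublet removal Lamb1 in DP-like cells (-0.53) and Fras1 in HFS-like cells (0.49) also fell short, as did Fras1 at a resolution of 0.8 (0.52).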

How the results depend on the processing

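The 143 log2 ratios followed here qualified for naming or were those of Col4a1, Col4a2 and P3h2 in FB-, KB-, VEC- and PCY-like cells. Of these, 82 kept their direction and their side of 1.5-fold under every setting run, over 1133 values. The counts of members past the fold moved by over 1.5 times as follows, and the cause was not tested where the setting's own construction does not show it. A fold of 2 was passed by 0.723% to 6.86% of all genes in a given class, comparison and direction, a share given in brackets after each count. FB-like cells had 0 of 21 higher (2.29%) in UV over CON, and 0 of 21 higher (0.723%) and 0 lower (1.67%) in Rux over UV. KB-like cells had 1 of 20 higher (6.86%) and 3 lower (2.89%) in UV over CON, and 0 of 22 lower (1.67%) in Rux over UV. VEC-like cells had 4 of 22 higher (1.79%) in UV over CON and 1 of 20 lower (2.8%) in Rux over UV. PCY-like cells had 1 of 23 higher (3.22%) in UV over CON, and 1 of 23 higher (1.88%) and 1 lower (3.96%) in Rux over UV. With a minimum of 10 UMIs in place of 10 CPM, which lets in more low genes, FB-like cells had 10 of 33 lower in UV over CON (16.8% of all genes) and 5 of 34 in Rux over UV (18.1%), KB-like cells 7 of 30 higher in UV over CON (20.2%) and 3 of 29 lower in Rux over UV (11.0%), VEC-like cells 3 of 25 lower (11.9%) and 4 of 23 lower (16.2%), and PCY-like cells 3 of 29 lower in UV over CON (12.1%). With clusters weighted as in CON, FB-like cells had 0 of 21 lower in UV over CON (5.15%) and in Rux over UV (3.98%). KB-like cells had 0 of 18 higher in UV over CON (10.0%), and 6 of 18 higher (11.4%) and 2 lower (7.29%) in Rux over UV. With equal weight per cell, FB-like cells had 0 of 21 lower (4.74%) and KB-like cells 6 of 21 higher (7.83%) in Rux over UV. In UV over CON, VEC-like cells had 2 of 22 lower (10.4%) and PCY-like cells 2 of 23 (10.9%). In Rux over UV, PCY-like cells had 7 of 22 higher (10.7%) and 1 lower (13.9%). Without doublet removal, FB-like cells had 0 of 20 lower (5.53%) and PCY-like cells 5 of 24 higher (7.33%) in Rux over UV. The strict filter on cells gave 2 of 24 lower (11.7%) in PCY-like cells in UV over CON. Keeping the members among the variable genes gave 1 of 19 lower (8.79%) in VEC-like cells in Rux over UV. Single ratios that turned in UV over CON were Col4a4 (-0.19) and Frem2 (-0.01) in HFS-like cells and Lama2 (-0.27) in VEC-like cells with equal weight per cell, Lama2 also with members kept (-0.16), Lama4 (-0.15) and Hspg2 (-0.10) in KB-like cells with clusters weighted, and Col4a1 in MYE-like cells (0.35) without doublet removal. In Rux over UV they were Smoc2 in DP-like cells (-0.11) with equal weight, Lamb1 (-0.12) and Col7a1 (0.42) in HFS-like cells with clusters weighted, and, without doublet removal, Col7a1 in HFS-like cells (0.22), Lama2 in LYM-like cells (0.40) and Nid1 in SCH-like cells (-0.66). Counting only classes with at least 20 cells in each library, a choice made after seeing the data, put 9 members in epithelial, 9 in fibroblast, 12 in vascular and 4 in other cells. With equal weight per cell, the peak of Col4a5 went from PCY-like to HFS-like and of Hspg2 from VEC-like to SCH-like cells. Under it Col15a1 went from VEC-like to DP-like and Lama1 from HFS-like to MEL-like (melanocyte) cells. Col15a1 moved likewise at a resolution of 0.8, and Col4a5 without doublet removal, where Lama3 went to MEL-like cells. Pxdn went to HFS-like cells with the loose filter. KB-like cells had under 100 cells in a library under both other cell filters, without doublet removal, at a resolution of 0.8 and with members kept, so those settings gave no value there, nor did the strict filter for PCY-like cells in Rux over UV. No paired analysis was possible because each condition had 1 library. Depth limits members near 10 CPM in VEC-, PCY- and KB-like cells, where a ratio can rest on fewer than 100 UMIs.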
